A study of Rattus norvegicus with 21 samples.

Results

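Elastin (Eln), fibronectin (Fn1), decorin (Dcn) and lumican (Lum) encode 4 noncollagen components of the bladder wall matrix, and this account follows their transcripts in the rat bladder over 16 weeks after spinal cord injury (SCI). The genes were chosen by name, with earlier results of these data known, and were taken from the count table by the identifiers ENSRNOG00000001469, ENSRNOG00000014288, ENSRNOG00000004554 and ENSRNOG00000004610, in that order. They are 4 of the 32754 genes counted, and all 4 passed the filter on low counts that left 15225 genes for testing. Full-thickness urinary bladders were profiled by RNA-Seq in 7 groups of 3 libraries each, 21 in all. The SCI groups were bladders taken 2, 8 or 16 weeks after complete transection of the thoracic cord, and the uninjured control groups were labelled 0, 2, 8 or 16 weeks. All animals were wild-type male Sprague Dawley rats, a few weeks old at surgery, and the labels name no treatment. The design asks how each gene differs between injured and age-matched uninjured bladders as time after injury passes. The labels put all libraries in batch 1. Each library has its own tissue code, but no label says in words that each code is another animal, so p values measure the spread between these samples.

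Elastin is secreted as a soluble monomer and crosslinked into elastic fibers, which let the bladder wall recoil after it has been stretched by filling. Fibronectin is a glycoprotein that cells assemble into fibrils through integrins, and it carries binding sites for collagen and for cells. Decorin and lumican are small leucine-rich proteoglycans. Both sit on collagen fibrils and limit their lateral growth, and decorin also binds TGF-β. In the RefSeq annotation of the rat assembly GRCr8, Lum is the next protein-coding gene after Dcn, and the other small leucine-rich proteoglycan genes Kera and Epyc follow it.

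Total counts per library ran from 8087726 to 15472537, with a median of 9584812. Levels are given in CPM, the count as a share of the library total after TMM scaling (trimmed mean of M values), so a level depends on transcript length and is compared between samples and not between genes. The lowest count of any library was 572 for Eln, 5681 for Fn1, 5786 for Dcn and 1088 for Lum. Counting error alone gives these a coefficient of variation of 4.18%, 1.33%, 1.31% and 3.03%, whereas the variation between libraries of a group was estimated at 26.9%, 24.1%, 18.1% and 18.7%. The spread between libraries therefore limits precision more than depth does. The share of counts in the 10 highest genes of each library was 9.51% to 14.3% in controls and 6.31% to 10.3% in SCI bladders. TMM factors were 0.9026 to 1.033 and 0.9964 to 1.086, respectively.

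Lumican was the member that differed most clearly between SCI and control bladders. Its mean level in SCI bladders was 213 CPM ± 40.4 (SD, n = 3), 133 ± 14.7 and 150.4 ± 21.8 at the 3 time points in turn, and the age-matched controls had 328 ± 62.9, 283 ± 63.3 and 250.0 ± 69.6 CPM. Averaged over the 3 time points, lumican fell to 0.568-fold of control in edgeR's quasi-likelihood test (log2 fold change −0.81, SE 0.12, 95% CI −1.08 to −0.55, adjusted p = 0.000637). In that averaged comparison 12.3% of all genes tested were called lower, and the fold change of lumican stood at the 2.94th percentile of all genes. In bulk tissue, fewer lumican-expressing cells and less lumican RNA per cell cannot be told apart.

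**Figure D1:**
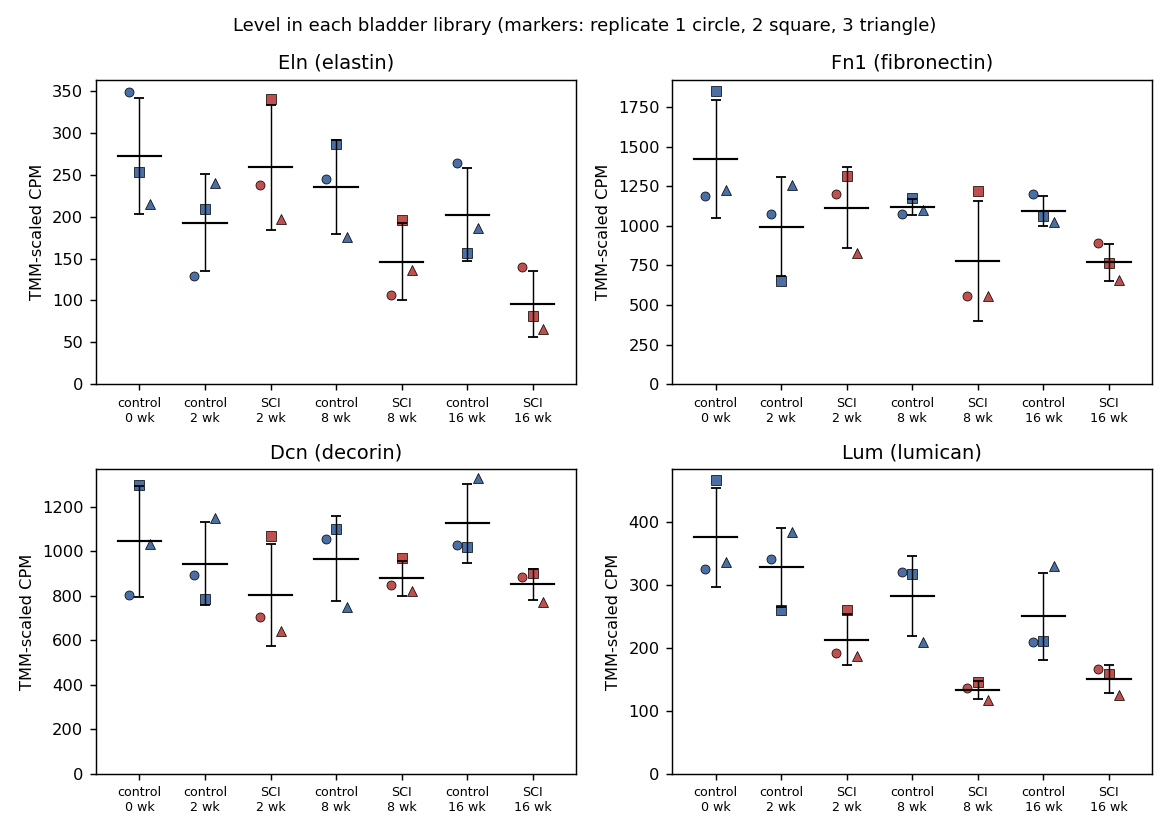
TMM-scaled CPM of the 4 genes in each of the 21 bladder libraries (blue, control; red, SCI; circle, square and triangle mark replicates 1, 2 and 3), with the group mean as a horizontal line and the SD as error bars, n = 3 per group. The SCI points for Lum lie under their age-matched controls at every time point, though at 2 weeks the closest values meet (259.8 and 259.9 CPM). Those for Eln overlap with their controls at 2 and 8 weeks and lie under them at 16 weeks, with 66.1 and 81.7 CPM as the lowest 2 values of the series.

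The individual libraries showed the same separation at each time point. At 2 weeks, lumican stood at 192, 260 and 188 CPM in SCI libraries and at 341, 260 and 384 CPM in controls, so that the highest SCI value (259.8) and the lowest control value (259.9) met without crossing. At 8 weeks the SCI libraries had 136, 146 and 117 CPM against 320, 318 and 210 CPM in controls. At 16 weeks they had 167, 158 and 126 CPM against 209, 211 and 330 CPM. SCI and control bladders thus did not overlap at any of the 3 time points, with SCI lower each time, a pattern shared by 2.08% of the genes tested. Taken across ages, 8 of the 9 SCI libraries were below the lowest of the 12 controls, which was a 16-week control. The exception was replicate 2 of the 2-week SCI group. A complete separation of all 9 SCI libraries below all 12 controls, which lumican did not show, occurred for 0.42% of genes. The share of genes with 8 of the 9 below was not computed.

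At 8 weeks lumican was 0.47-fold of control (log2 fold change −1.09, SE 0.22, 95% CI −1.55 to −0.63, adjusted p = 0.013 by edgeR), and it was the only member called at that time point, where 5.14% of all genes were called lower. Its level there, 133 CPM, was the lowest group mean of the series. The 8-week call was lost without SCI replicate 1 (adjusted p = 0.0679) or replicate 3 (adjusted p = 0.0736), while the log2 fold change stayed at −1.1 and −1.0. At 16 weeks the log2 fold change was −0.73 (SE 0.22, 95% CI −1.19 to −0.28) and the adjusted p of 0.0522 missed the threshold of 0.05. The 2-week value was −0.62 (SE 0.21, 95% CI −1.07 to −0.17, adjusted p = 0.474), at a time point where the quasi-likelihood test called 0 of 15225 genes. There, 1016 genes had an unadjusted p under 0.05, the likelihood ratio test called 69 and DESeq2 called 64. No difference in the lumican response between time points passed the test: the 8-week response minus the 2-week response was −0.47 (SE 0.3, adjusted p = 0.664), and the 16-week response minus the 8-week response was 0.36 (SE 0.3, adjusted p = 0.894). In these interactions 0.0197% and 0% of all genes were called, with 1010 genes at an unadjusted p under 0.05 in the second, 24 called by the likelihood ratio test and 20 by DESeq2. The 3 genes behind the first share became 0 without replicate 1 of the 2-week controls.

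Decorin, the other proteoglycan, was much nearer to control. Its means in the SCI groups of 2, 8 and 16 weeks were 804 CPM ± 230 (SD, n = 3), 878 ± 79.3 and 851 ± 70.3. The controls of the same ages had 944 ± 187, 966 ± 190 and 1125 ± 178 CPM. The log2 fold changes were −0.23 (SE 0.21), −0.14 (SE 0.21) and −0.40 (SE 0.21), and none passed the test (adjusted p = 0.933, 0.71 and 0.225). The 8-week value became 0.05 when libraries were scaled by their total alone, a scaling that moved the median of all genes at 8 weeks by 0.19 (log2). Their 95% confidence intervals ran from −0.67 to 0.21, from −0.57 to 0.3 and from −0.84 to 0.04, so that the 8-week interval for decorin did not reach the lumican estimate of −1.09. Averaged over the 3 time points the value was −0.26 (SE 0.12, adjusted p = 0.126).

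Decorin libraries overlapped between SCI and control at 2 weeks (703, 1067 and 641 CPM against 894, 787 and 1151 CPM) and at 8 weeks (848, 969 and 819 CPM against 1053, 1098 and 748 CPM). At 16 weeks the SCI libraries, at 882, 900.1 and 770.5 CPM, were all below the controls, at 1026, 1018 and 1331 CPM. The 16-week controls had the highest decorin mean of the 7 groups.

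**Figure D2:**
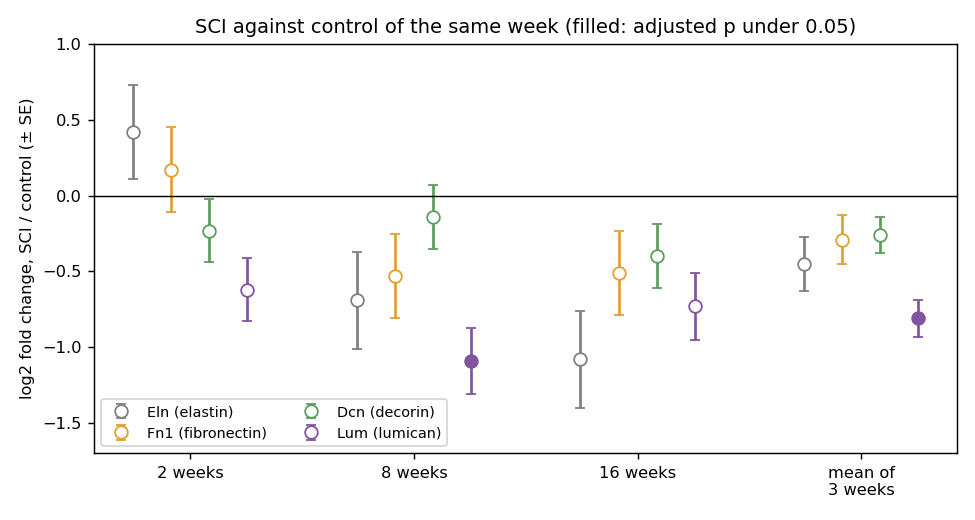
Log2 fold change of SCI over age-matched control for the 4 genes at 2, 8 and 16 weeks and averaged over the 3 (bars, SE; filled symbols, adjusted p under 0.05 in edgeR over 15225 genes). Lum is below 0 throughout, with −1.09 at 8 weeks and −0.81 on average as the filled points, and Eln runs from 0.42 at 2 weeks to −1.08 at 16 weeks.

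Elastin had group means after SCI that ran from above control to below it. At 2 weeks its mean in SCI bladders, 259 CPM ± 73.9 (SD, n = 3), was not below the 193 ± 57.6 of the controls, but it was 146 ± 45.8 against 236 ± 55.7 at 8 weeks and 96.0 ± 39.1 against 202 ± 55.1 at 16 weeks. The log2 fold changes were 0.42 (SE 0.31, adjusted p = 0.917), −0.69 (SE 0.32, adjusted p = 0.164) and −1.08 (SE 0.32, adjusted p = 0.0536), and none passed the threshold in edgeR's quasi-likelihood test with the count filter and no replicate block. At 16 weeks elastin passed without the count filter (adjusted p = 0.0483) and with the other settings given further on. Leaving out a single library raised the adjusted p of the quasi-likelihood test to as much as 0.207. The 16-week value corresponds to 0.474-fold of control, with a 95% confidence interval of −1.75 to −0.4.

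The elastin libraries were widely spread within groups. SCI bladders had 238, 341 and 197 CPM at 2 weeks, 106, 196 and 136 CPM at 8 weeks, and 140, 81.7 and 66.1 CPM at 16 weeks. Controls of the same ages had 129, 209 and 240 CPM, 245, 286 and 176 CPM, and 264, 157 and 187 CPM. SCI and control values overlapped at 2 and 8 weeks and were apart at 16 weeks, where the highest SCI value of 140.3 was below the lowest control value of 156.9. The SCI libraries at 16 weeks included the 2 lowest elastin values of all 21.

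Within the SCI arm, elastin was the member with the largest difference over time. The 16-week SCI bladders were at 0.371-fold of the 2-week SCI bladders (log2 fold change −1.43, SE 0.32, 95% CI −2.11 to −0.75, unadjusted p = 0.000327), and the groups were apart. The adjusted p was 0.276, in a comparison where 0.0328% of genes were called lower and 6.59% had groups that were apart and lower. The 5 genes called lower there became 0 to 7 when single libraries were left out. By unadjusted p elastin was the 18th of 15225 genes. With DESeq2's Wald test the same value had an adjusted p of 0.0108, and with edgeR's likelihood ratio test 0.0115, tests that called 17 and 19 of all genes lower. The change in the SCI effect on elastin between 2 and 16 weeks, tested as an interaction, was −1.5 (SE 0.45, unadjusted p = 0.00361) and did not pass (adjusted p = 0.615). The quasi-likelihood test passed 0 genes in that interaction, while 1180 had an unadjusted p under 0.05, the likelihood ratio test called 8 and DESeq2 called 6.

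Fibronectin did not pass the test at any time point. Its means were 1115 CPM ± 254 (SD, n = 3) after SCI against 994 ± 312 in controls at 2 weeks, 778 ± 381 against 1119 ± 52.5 at 8 weeks, and 770.5 ± 117 against 1094 ± 93.1 at 16 weeks. The log2 fold changes were 0.17 (SE 0.28), −0.53 (SE 0.28) and −0.51 (SE 0.28), with adjusted p values of 0.979, 0.234 and 0.257. The 2-week value turned to −0.06 without replicate 2 of the 2-week controls. The counts sum all splice forms of the gene, so the extra domains that distinguish fibronectin isoforms were not resolved.

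The 8-week result for fibronectin turned on a single library. SCI replicates 1 and 3 had 560.3 and 556 CPM, whereas replicate 2 had 1217 CPM, above the 3 controls at 1077, 1178 and 1103 CPM. That library also had the highest share of counts in its 10 highest genes of the 3 (8.81% against 6.31% and 6.77%) and the lowest TMM factor (0.9964 against 1.086 in both others), and the part of these in its fibronectin level was not tested. Without it, the log2 fold change of fibronectin at 8 weeks was −1.0 with an adjusted p of 0.0146. The number of all genes called lower at 8 weeks, 782 with this library, also rose when it was left out, as given further on. At 16 weeks the SCI libraries were closer together, at 890.0, 765 and 656 CPM, and stood apart from the controls at 1199, 1060 and 1022 CPM. At 2 weeks the groups overlapped, with 1200, 1315 and 829 CPM after SCI and 1073, 650.3 and 1260 CPM in controls.

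The members were also read as a set at each time point. Of the 4 genes, 1 had SCI and control groups apart and lower at 2 weeks (lumican), where 8.43% of all genes did, and 1 at 8 weeks (lumican again), where 14.7% did. At 16 weeks all 4 did, where 18.3% of all genes did. The median log2 fold change of the members was −0.03 at 2 weeks, −0.61 at 8 weeks and −0.62 at 16 weeks, beside 0, 0 and −0.02 over all genes tested. The number called in the quasi-likelihood test was 0, 1 and 0 of 4, beside 0%, 5.14% and 3.24% of all genes called lower. The last 2 shares moved with single libraries. The 782 genes called lower at 8 weeks became 29 without SCI replicate 1, 54 without SCI replicate 3 and 1521 without SCI replicate 2 of that age. The 493 called lower at 16 weeks became 13 and 12 without SCI replicate 1 or 3, 17 without control replicate 1 and 884 without replicate 2 of the 0-week controls. At 16 weeks lumican and elastin lay just short of the threshold, and both passed with DESeq2 (adjusted p = 0.0186 and 0.0158), with the likelihood ratio test, and without the 0-week controls. Both also passed with only the groups compared, where fibronectin passed as well (adjusted p = 0.0363). Leaving out single libraries moved the quasi-likelihood result both ways, with adjusted p values up to 0.167 for lumican and 0.207 for elastin.

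Averaged over the 3 time points lumican was called and the others were not. Elastin stood at −0.45 (SE 0.18, adjusted p = 0.0831), fibronectin at −0.29 (SE 0.16, adjusted p = 0.206) and decorin at −0.26 (SE 0.12, adjusted p = 0.126). Each of these passed without certain single libraries. Elastin did so without replicate 2 of the 2-week SCI group (adjusted p = 0.0479), replicate 2 of the 8-week SCI group (0.0368) or replicate 1 of the 16-week SCI group (0.0329). Decorin did so without replicate 2 of the 2-week SCI group (0.0328), and fibronectin without replicate 2 of the 8-week SCI group (0.0174). With other single libraries left out, the adjusted p rose to as much as 0.171 for elastin, 0.371 for fibronectin and 0.258 for decorin. Lumican passed under each of 32 alternatives, with adjusted p values from 4.2e-08 to 0.00199. Among these, the changed thresholds used the same fit, and leaving out 0-week controls removed no library of this contrast.

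**Figure D3:**
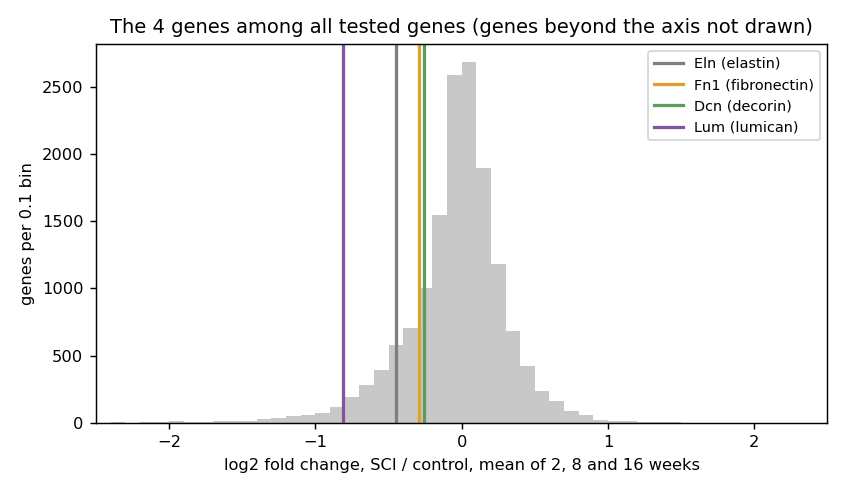
Number of tested genes per bin of 0.1 in log2 fold change (SCI over control, averaged over 2, 8 and 16 weeks), with the 4 genes as vertical lines. All 4 lie left of 0, and Lum at −0.81 lies in the lower tail while Eln, Fn1 and Dcn lie between −0.45 and −0.26.

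Uninjured bladders were compared over the same period to show how the genes moved without injury. None of the 4 genes was called in any comparison of control groups, where 0% (2 against 0 weeks and 8 against 2 weeks), 0.0788% (16 against 8 weeks) and 1.8% (16 against 0 weeks) of all genes were called in either direction. The 12 calls behind the third share became 0 to 129 when single libraries were left out, the highest without 16-week control replicate 2, and the 274 behind the fourth became 20 without 0-week control replicate 1 and 2070 without 0-week control replicate 2. In the first and second of these, the quasi-likelihood test called 0 genes, while the likelihood ratio test called 43 and 193 and DESeq2 called 45 and 269. Genes with an unadjusted p under 0.05 numbered 2044 and 2881. The 0 calls also moved with single libraries, for example to 82 in the first without 0-week control replicate 3. In the second they became 101 without 0-week control replicate 2. Lumican had control means of 376 CPM ± 78.6 at 0 weeks, 328 ± 62.9 at 2 weeks, 283 ± 63.3 at 8 weeks and 250.0 ± 69.6 at 16 weeks (SD, n = 3 each). Its log2 fold change from 0 to 16 weeks was −0.59 (SE 0.21, unadjusted p = 0.013, adjusted p = 0.155), and the groups overlapped. The same contrast gave −0.43 (SE 0.31) for elastin, −0.38 (SE 0.28) for fibronectin and 0.11 (SE 0.21) for decorin. The decorin value turned to −0.05 without replicate 1 of the 0-week controls and to −0.02 without replicate 3 of the 16-week controls.

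Ranked by group mean, the order of levels also differed between genes. For lumican the 4 control groups came first in order of age, followed by the SCI groups at 2, 16 and 8 weeks. The only neighbors in that order whose libraries did not overlap were the 2-week and 16-week SCI groups. Between these, 6.59% of genes had groups that were apart and lower at 16 weeks. For elastin and for decorin every pair of neighbors overlapped. Elastin ran from 272 CPM ± 68.9 in the 0-week controls to 96.0 ± 39.1 in the 16-week SCI group, with the 2-week SCI group in second place. Decorin ran from 1125 CPM ± 178 in the 16-week controls to 804 ± 230 in the 2-week SCI group. For fibronectin the 0-week controls, at 1188, 1849 and 1224 CPM (mean 1421 ± 371), stood above the next group, the 8-week controls, without overlap, and all further neighbors overlapped. The gap was narrow, 1188 against 1178 CPM, and the share of all genes apart between these 2 groups was not computed.

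The 2 proteoglycan transcripts were then compared within each library. The ratio of decorin counts to lumican counts does not depend on library size or on TMM scaling. It holds the length of both transcripts, so that its changes and not its size are read. In controls the ratio was 2.62, 3.03 and 3.00 at 2 weeks, 3.29, 3.45 and 3.57 at 8 weeks, and 4.91, 4.83 and 4.03 at 16 weeks. In SCI bladders it was 3.66, 4.11 and 3.41, then 6.24, 6.65 and 7.02, and then 5.28, 5.69 and 6.13. Every SCI library was above every control of its age. The mean ratio was 1.30, 1.93 and 1.24 times that of the controls at 2, 8 and 16 weeks. The 0-week controls had 2.46, 2.78 and 3.08, the lowest group mean (2.77 ± 0.308, SD, n = 3).

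**Figure D4:**
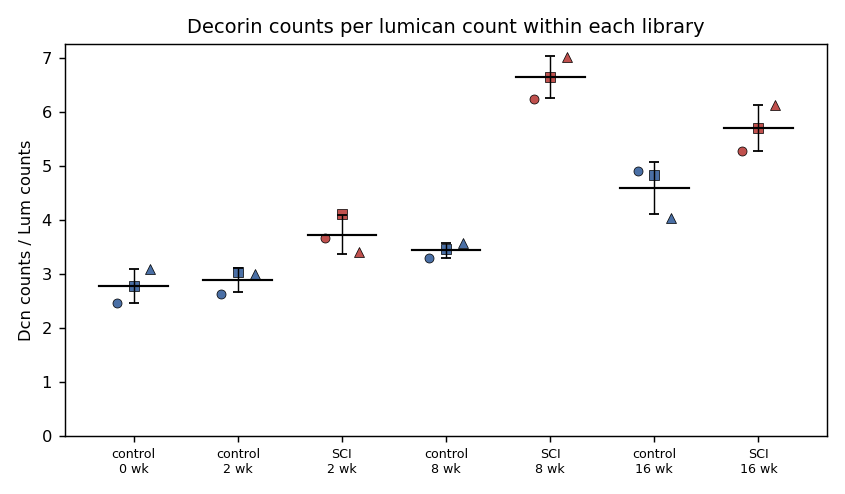
Decorin counts per lumican count within each of the 21 libraries (blue, control; red, SCI; circle, square and triangle mark replicates 1, 2 and 3; lines, group mean; bars, SD, n = 3). SCI bladders sit above the controls of their own age at 2, 8 and 16 weeks, with means of 3.73, 6.63 and 5.70 against 2.88, 3.44 and 4.59.

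Of the 6 ratios among the 4 genes, this was the only one in which SCI and control bladders were apart in the same direction at all 3 time points. Over all other genes, 0.361% had a ratio to decorin that was lower after SCI and apart at every time point, as lumican did. Seen from the other side, 25.6% of genes had a ratio to lumican that was higher and apart at every time point, as decorin did. A test of the ratio was chosen after these values had been seen. It used the decorin count of each library in place of its library size in the edgeR fit. Its p values are adjusted over genes and not over the pairs tested. Relative to decorin, lumican fell by 0.95 on the log2 scale at 8 weeks (SE 0.21, adjusted p = 0.0157), where 1.23% of genes were called lower, and by 0.54 on average (SE 0.12, adjusted p = 0.00416), where 2.57% were. With lumican as the reference instead, decorin was called higher in both, as were 78.4% and 84.5% of all genes. The values at 2 weeks (−0.37, SE 0.21, adjusted p = 0.659) and 16 weeks (−0.32, SE 0.21, adjusted p = 0.308) did not pass. The 8-week result was lost without SCI replicate 1 (adjusted p = 0.12) or replicate 3 (adjusted p = 0.113) of that age, while the log2 ratio change was −0.99 and −0.91.

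All 6 pairs were tested in this way in 14 comparisons, 84 tests in all, with each gene of a pair in turn as the reference. In 3 of them the call was made whichever gene served as the reference: lumican against decorin at 8 weeks and on average, and elastin against decorin between 2 and 16 weeks after SCI. In 7 more it was made with a single choice of reference, elastin in 4 and lumican in 3, where 30.4% to 93.7% of all genes were called higher in the same comparison (93.7% and 81.8% relative to elastin between 2 and 16 weeks after SCI and in the interaction of these ages, and 84.5%, 30.8% and 30.4% relative to lumican on average, in controls from 0 to 16 weeks and between 2 and 8 weeks after SCI). Elastin relative to decorin was at 0.348-fold in 16-week compared with 2-week SCI bladders (log2 ratio change −1.52, SE 0.3, adjusted p = 0.0191), in a comparison where 0.0657% of genes were called lower. With elastin as the reference, decorin was called higher together with 93.7% of all genes. The ratio of elastin to decorin in the SCI groups of 2, 8 and 16 weeks was 0.322 ± 0.0151, 0.165 ± 0.0386 and 0.112 ± 0.0409, against 0.206 ± 0.0609, 0.243 ± 0.0156 and 0.184 ± 0.0638 in controls (SD, n = 3). Relative to decorin, the SCI effect on elastin was 0.64 (SE 0.3) at 2 weeks, −0.56 (SE 0.3) at 8 weeks and −0.72 (SE 0.3) at 16 weeks, and none of these passed (adjusted p = 0.659, 0.416 and 0.14). The call between 2 and 16 weeks after SCI was lost without 2-week SCI replicate 1, 2 or 3 (adjusted p = 0.0973, 0.0867 and 0.0549) and without 16-week SCI replicate 2 or 3 (adjusted p = 0.238 and 0.382), while the log2 ratio change stayed between −1.55 and −1.37.

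The levels of decorin and lumican deviated together from bladder to bladder within groups. Each library's log2 CPM was expressed as its deviation from its group mean. Over the 21 libraries, Pearson's r between the deviations of decorin and lumican was 0.91 and Spearman's rho was 0.90. Without the 2 libraries farthest from the median r was 0.89 with decorin and 0.90 with lumican as the measure used to choose them. Decorin had the highest r with lumican of the 15224 other genes, with 0.89 for the next, and lumican was 5th for decorin, where the highest was 0.93. The median r over all genes was 0.01 for decorin and 0 for lumican. Both measures come from the same library and share its depth and composition, and the value is a description.

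**Figure D5:**
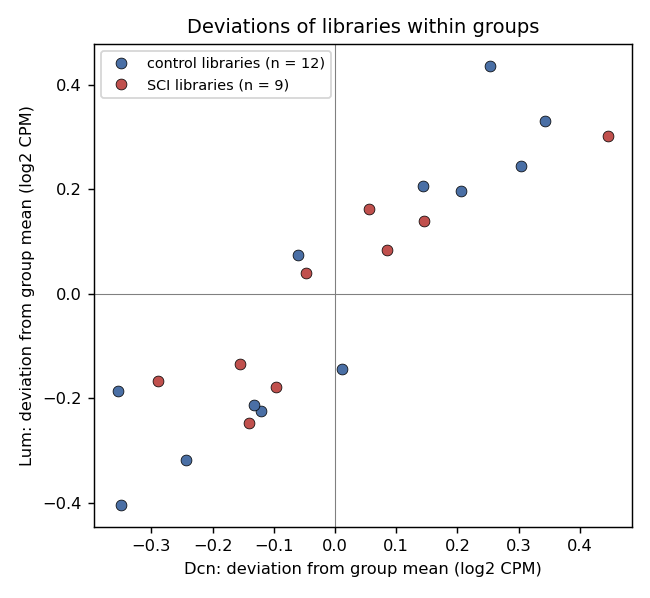
Deviation of each library's log2 CPM from its group mean for Dcn (horizontal axis) and Lum (vertical axis); blue points are the 12 control libraries and red points the 9 SCI libraries. The points run along a rising diagonal in both arms, with Pearson's r of 0.91 over the 21 libraries.

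The other pairs of genes were less alike from bladder to bladder. Pearson's r of the deviations was 0.60 for fibronectin with decorin, 0.54 for fibronectin with lumican, 0.45 for elastin with fibronectin, 0.37 for elastin with decorin and 0.34 for elastin with lumican. When group means were left in, decorin and lumican had an r of 0.59 over the 21 libraries and the order changed. Fibronectin with lumican then had 0.71, elastin with fibronectin 0.69 and elastin with lumican 0.64. These values mix the groups with the spread inside them.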

How the data were processed

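Total RNA from full-thickness rat bladder was made into stranded, ribosomal RNA-depleted libraries and sequenced as paired-end reads on 2 flow cells whose counts were combined. The submitters' processing notes name FastQC 0.11.9, MultiQC 1.13, Trim Galore 0.6.10, STAR 2.7.10a, SAMtools 1.17, featureCounts 2.0.3 and Rnor_6.0, with no settings. The authors deposited raw counts per Ensembl gene for the 21 libraries. Whether reads were counted by strand is not given in the sources used here, and featureCounts gives 1 value per gene for all isoforms. Reference sequences and coordinates of that build were not used here.

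The members were chosen, and the gene and marker lists drawn up, with earlier results of these data known. The member identifiers come from the selection rule: the RefSeq table holds the 4 symbols but pairs 0 of the Ensembl identifiers with a symbol. For the same reason no other gene could be named, the lists were not used, and the tissue label was not checked against marker genes.

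Counts were analysed with edgeR 4.0.16 (R 4.3.3). Genes were filtered with filterByExpr, scaled by TMM and fitted with 7 group means over 21 libraries (14 residual degrees of freedom, common biological coefficient of variation 0.16). Contrasts were tested with the quasi-likelihood test, adjusted by Benjamini-Hochberg over 15225 genes and called at an adjusted p under 0.05. Exact permutation of 3 against 3 libraries cannot go below p = 0.1, so it was not used. Likeness used log2 CPM with a prior count of 2. By the rule for named genes the 4 members were reported in every group. Alternatives were DESeq2 1.42.0, the likelihood ratio test, other scalings, filters and thresholds, subsets of samples, a replicate block and leaving out each library. The code was tested on simulated counts with known fold changes.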

Additional observations from a re-analysis of the deposited data

How the results depend on the processing

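The averaged result for lumican passed the threshold under all 32 alternatives (log2 fold change −0.87 to −0.71), some of which only changed the threshold on the same fit. Its 8-week result passed under 30 of 32 (−1.26 to −0.91), the exceptions being SCI replicates 1 and 3 of that age left out. The number of members called was 1 at 8 weeks and 1 on average, and 0 in all other comparisons. At 16 weeks, where 855 of 15225 genes were called, it was 2 (elastin and lumican) without a count filter (722 of 24319 genes called), with DESeq2 (1675), with the likelihood ratio test (1553), without the 0-week controls (2086 of 15138) and with the replicate block (1307), and 3 with only the groups compared (2105 of 14423). Between 2 and 16 weeks after SCI, where 7 genes were called, it was 1 with DESeq2 (25) or the likelihood ratio test (30). An unadjusted p under 0.05 with a log2 fold change of at least 0.5 gave 1, 2 and 2 of the 4 members at 2, 8 and 16 weeks (620, 2389 and 2287 of all 15225 genes). It gave 1 in each of the interactions of 8 and of 16 weeks with 2 weeks (970 and 845 genes), 1 in controls from 0 to 16 weeks (1639), and 2 in each of the SCI comparisons of 8 and of 16 weeks with 2 weeks (408 and 477). Leaving out each library in turn gave 0 to 2 at 8 weeks, 0 to 2 at 16 weeks and 1 to 3 on average. The calls over all genes moved too: the 3454 on average became, for example, 2832 without replicate 1 of the 2-week controls. They became 4131 without replicate 1 of the 0-week controls. At 16 weeks lumican passed without replicate 1 (adjusted p = 0.0416) or 2 (0.0335) of the 0-week controls, replicate 3 of the 8-week controls (0.048), replicate 2 of the 2-week SCI group (0.0481) or replicate 2 of the 8-week SCI group (0.0455). Elastin passed there without replicate 1 (0.0415) or 2 (0.0442) of the 0-week controls or replicate 2 of the 8-week SCI group (0.0398). With other single libraries left out, the adjusted p at 16 weeks rose to as much as 0.167 for lumican and 0.207 for elastin. The cause was not tested.

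Decorin at 8 weeks turned to 0.05 with library size only. Leaving out single libraries gave −0.06 to 0.37 for fibronectin at 2 weeks and −0.05 to 0.29 for decorin in controls from 0 to 16 weeks. Scaling by library size alone changed the split of all calls at 8 weeks from 499 higher and 782 lower to 2435 and 653, at 16 weeks from 362 and 493 to 478 and 292, and on average from 1578 and 1876 to 3652 and 1272. All calls at 8 weeks were 1281, with 3088 under that scaling, 1960 with DESeq2 and 322 with only the groups compared. Leaving out single libraries gave 32 to 2585 at 8 weeks and 16 to 1729 at 16 weeks, where the lowest were 16, 17 and 19 without SCI replicate 1, SCI replicate 3 and control replicate 1.

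Replicate numbers are shared between groups in the labels, but same-numbered SCI and control libraries deviated from their group means with correlations of only −0.14 to 0.13, so the numbers were not taken as pairs. With the replicate block, elastin at 16 weeks was −1.1 (adjusted p = 0.042) and lumican −0.75 (adjusted p = 0.0487). Of the members' other calls the block changed none. With 3 libraries per group, the 95% confidence intervals of decorin and fibronectin included 0 at each of the 3 time points.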
